A study of Mus musculus with 24 samples.

Results

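The p53 and DNA damage response genes examined here are 9 mouse genes chosen by symbol, Trp53, Mdm2, Mdm4, Cdkn1a, Atm, Atr, Chek1, Chek2 and Brca1, out of 55471 annotated genes. All 9 symbols matched 1 Ensembl gene each. Their RNA was followed in wild-type B6D2F1 mice (C57BL/6 J x DBA/2N) in ovulated oocytes at metaphase II (MII), taken from superovulated females, and in embryos grown in culture to the end of the 1-cell stage (L1C) or of the 2-cell stage (L2C). SLIM-seq is a low-input RNA immunoprecipitation with an antibody against N6-methyladenosine (m6A). It gave 3 input and 3 IP libraries per stage, the inputs being RNA that was not immunoprecipitated. In a separate experiment, zygotes at an early pronuclear stage received mRNA for the RNA-cutting enzyme Cas13d, either together with crRNAs that target Ythdc1, a nuclear reader of m6A (KD, 3 libraries), or without them (Ctrl, 3 libraries), and were collected as L2C embryos. Both arms of that experiment thus carry Cas13d, and the Ctrl arm had no crRNA of any kind. The libraries do not show when after injection Cas13d began to cut RNA.

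p53 is a transcription factor that is held low by the ubiquitin ligase MDM2 and its relative MDM4, and that drives genes such as Cdkn1a when DNA is damaged. The kinases ATM and ATR sense broken DNA and stalled replication forks and pass the signal on, mainly through CHK2 and CHK1 respectively, while BRCA1 acts in homologous recombination. Oocytes and cleavage embryos start with maternal RNA that is cleared around the first divisions while the embryonic genome becomes active.

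The libraries held 18557354 to 38195101 estimated counts in the inputs and 11107175 to 39739640 in the IPs, and the 5 KD experiment files with the whole annotation held 8696476 to 14500548 counts. Of 10 oocyte markers, 10 were lower in L2C than in MII inputs without overlap, and of 10 2-cell markers 10 were higher. Cumulus cell markers, a check for cells left on the oocytes, summed to 29.8 to 31.3 CPM in MII inputs and 237 to 258 CPM in L2C inputs, against 14398 to 15697 CPM for the oocyte markers at MII. Of these 10, 1 was higher and 4 were lower at L2C than at MII without overlap, and the defining marker Ptx3 was at 0 in every input library. The labels do not say whether replicates came from separate collections, so the p-values measure the spread between these samples, which may be technical. Each library is a pool, so fewer cells of a type and less RNA per cell cannot be told apart.

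Among the inputs, the 9 genes moved in different directions between the oocyte and the 2-cell embryo. Chek2, Atm and Cdkn1a rose 210-fold, 12.5-fold and 8.36-fold from MII to L2C, Chek1, Brca1, Trp53, Mdm2 and Atr fell, and Mdm4 was 1.38-fold higher. The test was edgeR's quasi-likelihood test on the 9 inputs, with p-values adjusted over all 19903 genes tested and called below 0.05. From MII to L2C, 9 of 9 members were called (4 higher, 5 lower), in a comparison where 84.6% of all genes tested were called, 47.5% higher and 37.1% lower. A call alone therefore sets no member apart, and the sizes below are given with each gene's place among all genes. Levels are counts scaled to library size (CPM) on the scale of the 9 inputs. They come from reads over whole gene spans, so they are compared within a gene and not between genes.

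**Figure D1:**
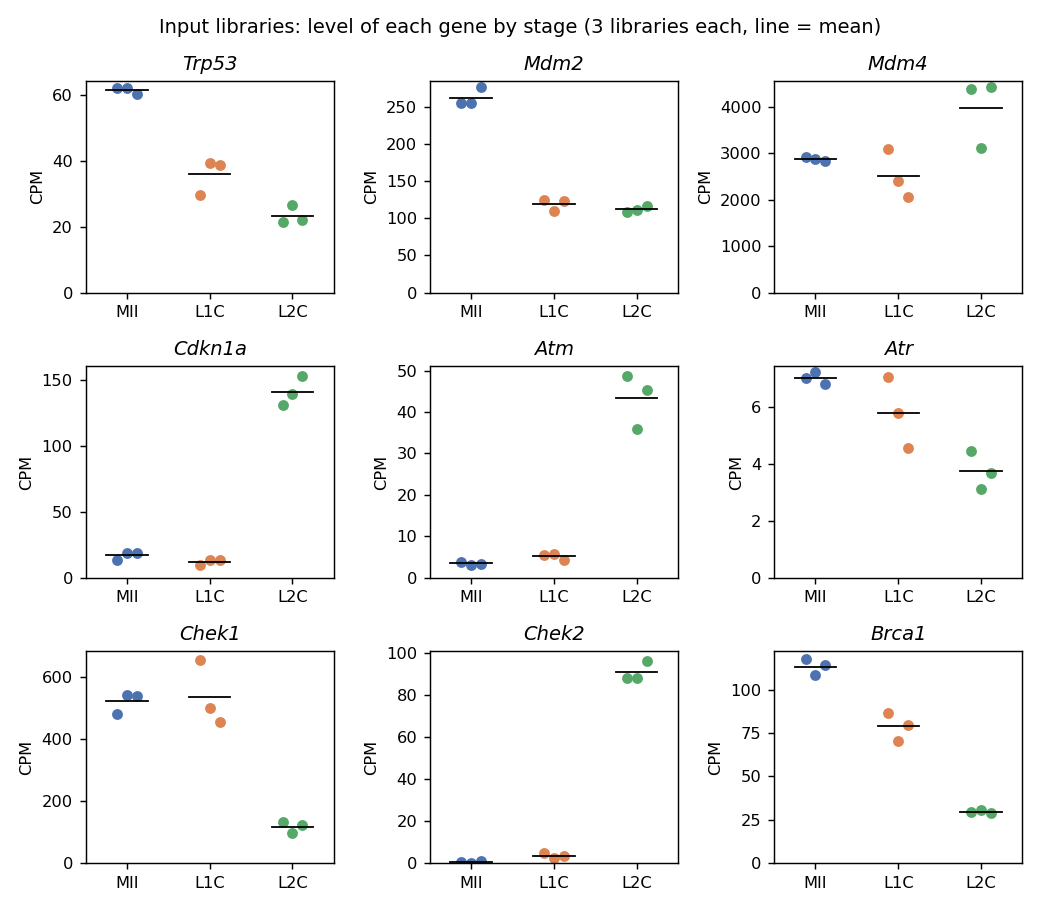
Level of each of the 9 genes (CPM, linear axes from 0) in the 3 input libraries of each stage, with points for libraries and lines for means. Cdkn1a, Atm and Chek2 lie far higher at L2C than at both earlier stages, Chek1 falls only at L2C, and Trp53 and Mdm2 fall already by L1C.

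Trp53 encodes p53 itself (chr11:69580359-69591873, plus strand, GRCm38). It lay at 62.3, 62.2 and 60.2 CPM in the MII inputs, at 29.7, 39.3 and 38.8 CPM at L1C, and at 21.5, 26.7 and 22.0 CPM at L2C. The 3 stages did not overlap, and each step was downward. The log2 change was -0.78 ± 0.14 (SE) from MII to L1C (edgeR adjusted p = 0.000406) and -0.62 ± 0.14 from L1C to L2C (adjusted p = 0.00119). Its total change from MII to L2C, -1.40, lay at percentile 25.5 of all genes tested.

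The inhibitors of p53 did not follow each other. Mdm2 (chr10:117688875-117710758, minus strand) lay at 255, 255 and 276 CPM at MII, 125, 110.1 and 123 CPM at L1C, and 109, 111 and 116 CPM at L2C. It fell by L1C, with a log2 change of -1.13 ± 0.11 (edgeR adjusted p = 1.15e-06). The L1C and L2C libraries overlapped, with a log2 change of -0.09 ± 0.11 between them (adjusted p = 0.442).

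Mdm4 (chr1:132959484-133030561, minus strand), whose product binds p53 and blocks its activation domain, lay at 2919.8, 2879 and 2832 CPM at MII. At L1C it lay at 3087, 2412 and 2053 CPM, on both sides of the MII values. At L2C it lay at 4395, 3112 and 4439 CPM, above every earlier library. The log2 change was 0.66 ± 0.16 from L1C to L2C (edgeR adjusted p = 0.00167) and 0.47 ± 0.16 from MII to L2C (adjusted p = 0.0147). The call from MII to L2C was lost without L2C input 1 (adjusted p = 0.0651) or L2C input 3 (adjusted p = 0.0759).

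Cdkn1a (chr17:29090976-29100727, plus strand) encodes p21, an inhibitor of cyclin-dependent kinases and the best known target of p53. It lay at 13.3, 19.1 and 18.5 CPM at MII and at 9.94, 13.5 and 13.4 CPM at L1C. At L2C it lay at 132, 139 and 154 CPM, far above all 6 earlier libraries. Those are span counts, and its exon counts in Ctrl L2C embryos gave 60.4 CPM. The rise from L1C to L2C was 3.53 ± 0.18 on the log2 scale (edgeR adjusted p = 1.74e-10), an 11.5-fold change at percentile 84.6 of all genes. The small fall from MII to L1C (-0.47 ± 0.17, adjusted p = 0.0295) came with overlapping groups. It lost its call without MII input 2 (adjusted p = 0.121), MII input 3 (0.0964) or L1C input 1 (0.115), and in a fit of those stages alone (0.0566).

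The promoter of Cdkn1a is shown because its gene is the classical p53 target and its RNA rose at L2C, where Trp53 RNA was lowest. RefSeq gives the gene 2 starts, and the window of the upstream one, 250 bases before to 50 after it, is chr17:29090729-29091028 (plus strand, GRCm38.p6). In it the matches to the p53 decamer, the 10-letter unit of the p53 response element searched on both strands of the palindromic motif, are in capitals.
Cdkn1a promoter: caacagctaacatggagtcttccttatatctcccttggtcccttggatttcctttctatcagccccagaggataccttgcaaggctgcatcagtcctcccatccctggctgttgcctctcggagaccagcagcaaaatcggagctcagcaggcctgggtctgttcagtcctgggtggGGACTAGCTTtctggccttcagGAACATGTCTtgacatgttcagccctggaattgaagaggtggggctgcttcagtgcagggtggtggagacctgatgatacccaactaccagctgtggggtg
The matches begin 73 and 51 bases before that start. The window of the other Cdkn1a start, chr17:29093519-29093818, holds no match, and which start these embryos used was not measured. The Trp53 promoter holds 1 match (GGACTTGCCC, 75 bases before the start) and the Mdm2 promoter 1 (GAACTTGCCT, 186 bases before), and no match lies in the windows of the other 6 members. Of 32851 promoters in the same table, 8.36% hold at least 1 match and 0.359% at least 2. These matches are letters in a window, and none of the libraries measured binding there.

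The apical kinases took opposite courses. Atm (chr9:53439149-53536740, minus strand), the kinase that answers breaks in DNA, lay at 3.92, 3.05 and 3.44 CPM at MII, 5.58, 5.71 and 4.37 CPM at L1C, and 48.8, 35.9 and 45.4 CPM at L2C. The stages did not overlap. From L1C to L2C Atm rose by 3.05 ± 0.19 on the log2 scale (edgeR adjusted p = 1.32e-09), at percentile 81.0 of all genes. Its smaller rise from MII to L1C (0.59 ± 0.19, adjusted p = 0.0188) lost its call without MII input 2 (0.0846), MII input 3 (0.0532) or L1C input 2 (0.0640).

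Atr (chr9:95857597-95951781, plus strand), the kinase of stalled forks, lay at 7.02, 7.24 and 6.82 CPM at MII, 7.06, 5.80 and 4.58 CPM at L1C, and 4.46, 3.14 and 3.70 CPM at L2C. Only the L2C libraries lay apart from the others, all of them lower. The log2 change was -0.27 ± 0.21 from MII to L1C (edgeR adjusted p = 0.299) and -0.63 ± 0.22 from L1C to L2C (adjusted p = 0.0150). The later change lost its call without L1C input 1 (0.0571) or L2C input 2 (0.0529), and in DESeq2 (0.0732). Genes on the other strand overlap the span of Atr, and whether these counts used strand was not settled, so the value of Atr may include their reads.

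The effector kinases moved in opposite directions at L2C. Chek1 (chr9:36708482-36727065, minus strand), which is coupled mainly to ATR, lay at 482, 543 and 540.1 CPM at MII and at 655, 499 and 455 CPM at L1C. These stages overlapped (log2 change 0.04 ± 0.15, edgeR adjusted p = 0.841). At L2C it lay at 132, 96.8 and 121 CPM, below every earlier library, a fall by 2.20 ± 0.16 on the log2 scale from L1C (adjusted p = 8.12e-09) and at percentile 15.1 of all genes.

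Chek2 (chr5:110839979-110874145, plus strand), which is coupled mainly to ATM, was nearly absent from the oocyte. The 3 MII inputs held 11, 3 and 12 estimated counts, or 0.474, 0.150 and 0.676 CPM. At L1C it lay at 4.61, 2.46 and 3.18 CPM, and at L2C at 88.2, 87.9 and 95.9 CPM, so that no stage overlapped another. It rose by 2.99 ± 0.35 on the log2 scale from MII to L1C (edgeR adjusted p = 7.43e-06) and by 4.72 ± 0.25 from L1C to L2C (adjusted p = 2.99e-10), at percentiles 90.8 and 91.3. From MII to L2C it stood at percentile 93.2, above the other 8 members.

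Brca1 (chr11:101488764-101551955, minus strand) lay at 118, 108 and 114 CPM at MII, 86.5, 70.2 and 79.8 CPM at L1C, and 29.3, 30.8 and 28.7 CPM at L2C. It stepped down without overlap at each stage. The log2 change was -0.52 ± 0.12 from MII to L1C (edgeR adjusted p = 0.00174) and -1.41 ± 0.12 from L1C to L2C (adjusted p = 5.25e-08). Over the members, 6 of 9 were called from MII to L1C (2 higher), where 56.2% of all genes were called, and 8 of 9 from L1C to L2C (4 higher), where 82.9% were. With a log2 change above 1 in size asked for as well, the members called were 2 of 9 from MII to L1C (35.4% of all genes), 5 of 9 from L1C to L2C (70.4%) and 7 of 9 from MII to L2C (73.2%). On the same genes, library size scaling shifted the median of all genes by 0.14 on the log2 scale from MII to L2C, its largest shift between stages. Under library size scaling only Mdm2 from L1C to L2C changed sign, and in DESeq2 only that value and Chek1 from MII to L1C, none of them called.

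Ratios of counts within a library do not depend on scaling. Chek2 over Chek1 was 0.000984, 0.000276 and 0.00125 in the MII inputs, 0.00704, 0.00493 and 0.00698 at L1C, and 0.670, 0.909 and 0.791 at L2C. Every L2C input lay far above every earlier one. Between MII and L2C the ratio rose 1123-fold, or 706-fold without MII input 2 with its 3 Chek2 counts (exact permutation test, two-sided, p = 0.1, the smallest p that 3 against 3 libraries allow). Atm over Atr rose 23.5-fold, from 0.421 to 0.558 at MII to 10.9 to 12.3 at L2C, and Mdm4 over Mdm2 3.19-fold, from 10.3 to 11.4 to 28.1 to 40.3. These had the same p of 0.1 in the exact permutation test, and none of their MII and L2C libraries overlapped.

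**Figure D2:**
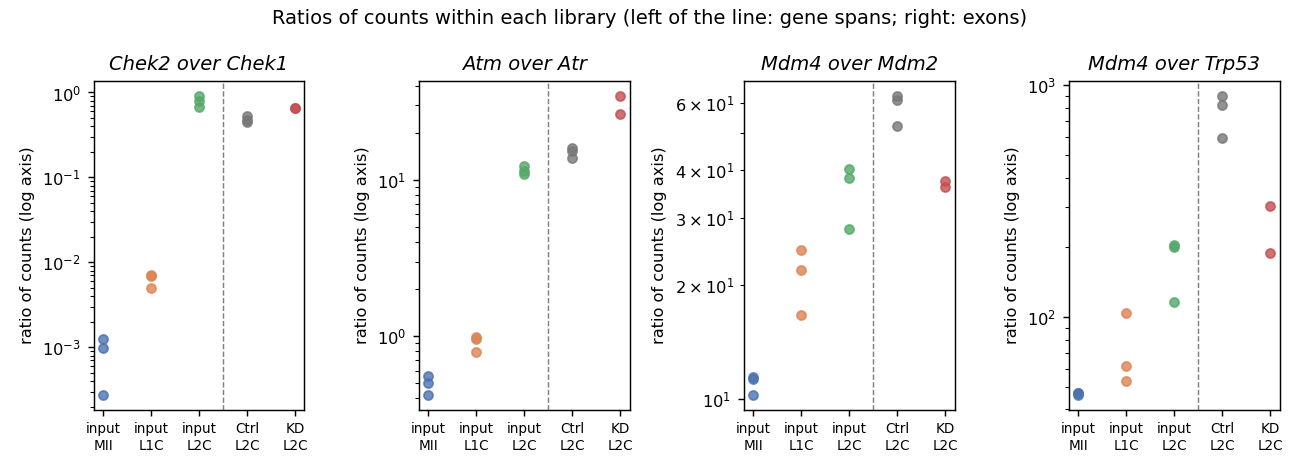
Ratios of counts of pairs of genes within each library (log axes), by group, with 1 point per library. Left of the dashed line counts come from gene spans and right of it from exons, so the sides are not compared. Chek2 over Chek1 climbs from about 0.001 at MII to 0.670 to 0.909 at L2C.

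Levels per kilobase of exon allow genes to be compared, but the divisor holds all annotated exons of a gene, and the order may change with it. For Mdm4 it is 14798 bases, against 1914 in the transcript searched for a motif below. The 3 Ctrl L2C libraries set Mdm4 far above the rest at 426 ± 15.6 CPM per kb (SD, n = 3), percentile 99.5 of 16018 protein-coding genes with a count. Chek1 followed at 34.5 ± 3.00, Chek2 at 25.8 ± 0.0355, Mdm2 at 21.3 ± 1.39, Cdkn1a at 17.0 ± 1.71 and Atm at 14.2 ± 1.01 CPM per kb. Brca1 (3.88 ± 0.180), Trp53 (2.07 ± 0.394) and Atr (0.417 ± 0.0493) were lowest, against a median of 1.54 over those genes. No neighbours in this order overlapped in the 3 libraries. By this measure Trp53 RNA was near the middle of the protein-coding genes with any count, at percentile 54.7. The RNA of its inhibitor Mdm4 was among the most abundant. The exon counts of Ctrl and the span counts of the L2C inputs did not give the same CPM for a gene. Exon over span CPM ran from 0.358 for Trp53 and 0.427 for Cdkn1a to 2.62 for Atr and 3.39 for Atm. The reason was not tested, and the span counts of every member share the open question of strand.

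Across the 18 SLIM-seq libraries, the protein-coding genes whose levels ran most like those of the members, by Pearson's r of log2(CPM + 1) among 15141 genes, were found for each. For Chek2 these were Ei24 and Cx3cr1 (r = 0.997 for both), for Chek1 Fbxw27 and Nuf2 (0.997 for both), for Atm Snx5 and Efhd1 (0.994 for both) and for Trp53 Ccdc84 (0.993) and Mcub (0.992). Mdm4 had no neighbour as close, with Ddx5 (0.954) first, nor did Atr, with Nbeal1 (0.924). Among the members themselves, Atm ran most like Chek2 (0.968) and Cdkn1a (0.898), and Chek1 most like Trp53 (0.840). The points share stages, libraries and depth, so these values only describe the course over 3 stages.

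The IP libraries ask how much of each RNA the m6A antibody recovered relative to input. The core letters around many m6A sites are GGACT in the transcript (GGACU in RNA). The 21-base windows below show the last GGACT before the stop codon in the coding part of GENCODE M21 transcripts for the members whose IP differed from input at 1 stage or more and that have one, with GGACT in capitals, 5′ to 3′ on the coding strand.
Chek2: cgcgctgtGGACTgctggagt
Atm: ctttgattGGACTatgaatcc
Atr: agagcatgGGACTgctttgtt
Mdm2: gagtctctGGACTcggaagat
Mdm4: gatcttgaGGACTccaggtcc
Brca1: gtgatgtgGGACTgggtgttg
On GRCm38 the 5 letters lie at chr5:110866391-110866395 in exon 11 of Chek2, chr9:53440135-53440139 in exon 63 of Atm, chr9:95888106-95888110 in exon 19 of Atr, chr10:117692638-117692642 in exon 10 of Mdm2, chr1:132994547-132994551 in exon 10 of Mdm4 and chr11:101489871-101489875 in exon 23 of Brca1. GGACT occurred 2.64 times per kb of transcript in Chek2, percentile 95.2 of 21901 protein-coding genes. It occurred 1.22 times per kb in Brca1, 0.715 in Atm, 0.645 in Mdm2, 0.522 in Mdm4 and 0.370 in Atr, against a median of 1.02, and not at all in the Trp53 transcript of 1771 bases. Cdkn1a had 1.92 per kb, all 4 outside the coding part, and Chek1 0.527. Each gene was searched in 1 transcript, that with the longest coding part. For Mdm4 this holds 1914 bases, against 14798 bases of annotated exon. Of all genes, 71.8% hold it in the coding part, so the letters alone mark no RNA as methylated.

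At all 3 stages, Mdm2, Mdm4 and Brca1 RNAs were lower in IP than in input. Chek2 was higher in IP at MII and L1C, and Atm and Atr were higher at L2C. IP and input were compared in edgeR over all 18 libraries, and CPM below are on that common scale. At MII 4 of 9 members were called (1 higher), where 38.6% of 21950 genes were called, 17.7% higher and 21.0% lower. At L1C 4 of 9 were called (1 higher) against 33.9% of all genes (15.8% higher, 18.2% lower), and at L2C 6 of 9 (2 higher) against 44.0% (22.0% in each direction).

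**Figure D3:**
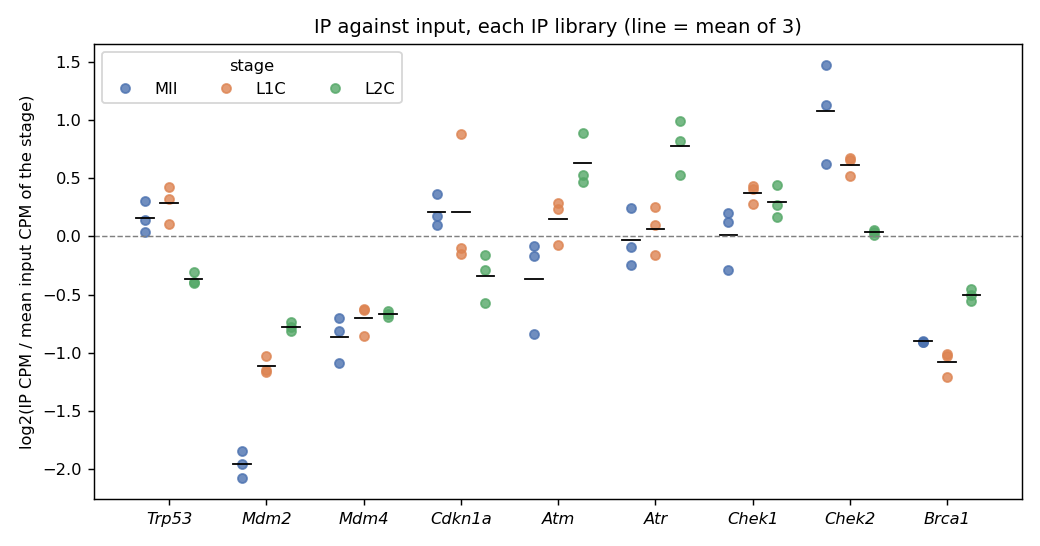
Log2 of the CPM in each IP library over the mean CPM of the 3 inputs of its stage, for the 9 genes, with 3 points and a mean line per stage and a dashed line at 0. Mdm2, Mdm4 and Brca1 lie below 0 at each stage, Mdm2 moves up from -1.96 at MII to -0.78 at L2C, and Atm and Atr lie above 0 in all 3 L2C libraries.

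Mdm2 was the member recovered least. At MII it held 312, 306 and 328 CPM in the inputs and 87.5, 74.6 and 81.4 CPM in the IPs, a log2 IP/input of -1.96 ± 0.10 (edgeR adjusted p = 3.51e-11) at percentile 6.15 of all genes. At L1C the inputs held 143, 125 and 138 CPM and the IPs 61.2, 60.5 and 66.4 CPM (-1.11 ± 0.10, adjusted p = 5.22e-08). At L2C the inputs held 105, 105 and 113 CPM and the IPs 62.6, 64.7 and 61.3 CPM (-0.78 ± 0.09, adjusted p = 2.96e-06). IP and input did not overlap at any stage. The IP level itself stayed between 60.5 and 87.5 CPM while the input fell.

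That shift was tested as an interaction of stage and library kind. The log2 IP/input of Mdm2 rose by 0.85 ± 0.13 from MII to L1C (edgeR adjusted p = 0.000415), the only member called there, where 7.33% of genes were (3.13% higher, 4.21% lower). From MII to L2C it rose by 1.18 ± 0.13 (adjusted p = 5.34e-06), and from L1C to L2C by 0.33 ± 0.13 (adjusted p = 0.126). The first 2 of these calls held without each library in turn.

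Mdm4 had a log2 IP/input of -0.86 ± 0.16 at MII, -0.70 ± 0.16 at L1C and -0.67 ± 0.16 at L2C (edgeR adjusted p = 0.000234, 0.00188 and 0.00218). At L2C, for example, the inputs held 4255, 2949.6 and 4299 CPM and the IPs 2457, 2413 and 2370.0 CPM. All 9 IP libraries lay below the inputs of their stage, and no change between stages was called (adjusted p of 0.623 or more).

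Brca1 had inputs of 144, 129.8 and 136 CPM and IPs of 73.3, 72.7 and 72.9 CPM at MII. At L1C the inputs held 99.0, 79.8 and 89.6 CPM and the IPs 43.8, 44.4 and 38.8 CPM, and at L2C the inputs held 28.3, 29.2 and 27.8 CPM and the IPs 19.4, 20.8 and 20.1 CPM. The IPs were lower without overlap at each stage. Its log2 IP/input was -0.90 ± 0.10, -1.08 ± 0.10 and -0.50 ± 0.10 at the 3 stages (edgeR adjusted p = 7.02e-07, 1.52e-07 and 0.000637). The rise from L1C to L2C, 0.58 ± 0.14, was called (adjusted p = 0.0163), where 9.47% of genes were (5.0% higher, 4.47% lower). It lost the call without L1C IP 3 (0.0542), without the filter on low counts (0.153) and in a fit of those stages alone (0.170).

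Chek2, low in the oocyte, held 0.580, 0.180 and 0.805 CPM in the MII inputs and 1.14, 1.45 and 0.801 CPM in the IPs, which overlapped. The log2 IP/input was 1.14 ± 0.37 (edgeR adjusted p = 0.0208). This rests on 3 to 28 counts a library, and the call was lost without MII input 2 (0.114) or MII IP 2 (0.106), and in a fit of that stage alone (0.0700). At L1C the inputs held 5.28, 2.80 and 3.57 CPM and the IPs 6.14, 6.20 and 5.58 CPM, without overlap (0.61 ± 0.22, adjusted p = 0.0372). That call was lost without L1C input 2 (0.189), L1C input 3 (0.115), L1C IP 1 (0.105), L1C IP 2 (0.0919) or L2C IP 3 (0.0507), and in a fit of that stage alone (0.0714). At L2C, IP and input overlapped at 83.3 to 92.9 CPM (0.04 ± 0.19, adjusted p = 0.896). The change from MII to L2C, -1.11 ± 0.42, was not called (adjusted p = 0.0702), and was called without MII input 3 (0.0309), L1C input 1 (0.0387) or MII IP 3 (0.0433), in DESeq2 (0.0166), with no filter (0.0247) and in a fit of those stages alone (0.0269).

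Atm and Atr crossed above their inputs at L2C. Atm held 47.2, 34.1 and 43.9 CPM in the L2C inputs and 57.9, 77.6 and 60.1 CPM in the IPs (0.64 ± 0.18, edgeR adjusted p = 0.00721). Atr held 4.32, 2.98 and 3.58 CPM in the inputs and 5.22, 6.39 and 7.23 CPM in the IPs (0.78 ± 0.21, adjusted p = 0.00493). In both, every IP lay above every input. At MII and L1C both genes had overlapping groups and log2 IP/input between -0.34 and 0.16. The Atm call at L2C was lost without L2C input 2 (adjusted p = 0.051), and L2C IP 2, the library with the fewest counts, gave the highest Atm value.

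From MII to L2C the log2 IP/input of Atm rose by 0.98 ± 0.28 (edgeR adjusted p = 0.0190), where 20.3% of genes were called (11.1% higher, 9.21% lower). That of Atr changed by 0.80 ± 0.29 (adjusted p = 0.0599). The Atm call was lost without MII input 1 (0.0653), L2C input 2 (0.0511) or MII IP 2 (0.0652) and in a fit of those stages alone (0.0630), and Atr was called without L2C input 1 (0.0434), MII IP 1 (0.0428) or L2C IP 1 (0.0423). The 2 kinases were thus close to the threshold from either side.

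Trp53 was not called before the 2-cell stage and was below its input at L2C. Its log2 IP/input was 0.17 ± 0.13 at MII and 0.29 ± 0.13 at L1C (edgeR adjusted p = 0.334 and 0.0837), and DESeq2 made the call at L1C (0.0286). Under library size scaling it was called higher in IP at MII (0.40, adjusted p = 0.0166) and at L1C (0.59, adjusted p = 0.00118). At L2C the inputs held 20.8, 25.3 and 21.3 CPM and the IPs 18.2, 17.2 and 17.1 CPM, all lower (-0.36 ± 0.13, adjusted p = 0.0298). The change of -0.65 ± 0.18 from L1C to L2C was called (adjusted p = 0.0289), as was that of -0.53 ± 0.18 from MII to L2C (adjusted p = 0.0458). These are weak calls. The L2C value lost its call without L2C input 2 (0.125), L2C IP 2 (0.0632) or L2C IP 3 (0.0873), without the filter on low counts (0.0589) and under library size scaling (0.511). The change from L1C was lost without L1C input 1 (0.0694), L2C input 2 (0.0738), L1C IP 1 (0.0739), L1C IP 3 (0.0765) or L2C IP 3 (0.0741). The change from MII was lost without 11 of the 18 libraries taken 1 at a time, with adjusted p between 0.0515 and 0.111, as well as under library size scaling (0.0555) and with no filter (0.0961).

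With TMM scaling and all 18 libraries, Cdkn1a and Chek1 were not called at any stage. Cdkn1a had log2 IP/input of 0.22 ± 0.22, 0.30 ± 0.22 and -0.33 ± 0.21 at MII, L1C and L2C, and in L1C IP 3 it was at 25.6 CPM against 13.0 and 12.5 CPM in the other IPs. Chek1 had 0.03 ± 0.15, 0.37 ± 0.15 and 0.30 ± 0.15, with adjusted p of 0.0685 at L1C, where the call was made without L1C input 1 (0.0113) and in DESeq2 (0.0413). Cdkn1a was lower in all 3 L2C IPs than in the inputs (adjusted p = 0.214), and was called in a fit of that stage alone (0.0240). Under library size scaling Cdkn1a was called at L1C (0.60, adjusted p = 0.0367), as was Chek1 at L1C (0.68, adjusted p = 0.00226) and L2C (0.56, adjusted p = 0.00800). A looser rule after that of the study for tagged RNAs, here log2 IP/input above 0 at edgeR's unadjusted P below 0.05 over the replicates together, with over 1 count in each input, took in Chek2 at MII, Trp53, Chek1 and Chek2 at L1C, and Atm and Atr at L2C, against 19.2%, 18.6% and 23.9% of all genes. Closer to the study's own form, with IP libraries tested 1 at a time in DESeq2, 2 of 3 asked for and a log2 value above 2 taken where P was missing, Atm at L2C alone met it (7.16% of genes there, 9.57% at MII and 4.56% at L1C).

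Scaling moves every IP/input value together. Under library size alone the median of all genes was higher by 0.20 at MII, 0.30 at L1C and 0.25 at L2C on the log2 scale, and the share of higher among called genes went from 45.7% to 61.7% at MII, from 46.5% to 70.9% at L1C and from 50.0% to 67.6% at L2C. The members called then were 5 at MII (2 higher), 6 at L1C (4 higher) and 5 at L2C (3 higher). The log2 values of Mdm2, Mdm4 and Brca1 were negative under each scaling, but the calls of Mdm4 at L1C (0.0524) and Brca1 at L2C (0.0532) were lost with library size. Cumulus cell markers differed between L2C IPs (63.1 to 89.4 CPM in sum) and L2C inputs (237 to 258 CPM), with 1 of 10 markers lower and 4 higher without overlap. Their part in these results was not tested.

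Knockdown of Ythdc1 asks how the members' RNA stands in L2C embryos when the nuclear reader is reduced. Ythdc1 itself lay at 1080.2, 1098 and 994 CPM in Ctrl and 523, 541 and 519 CPM in KD, 2.01-fold lower (edgeR adjusted p = 1.34e-10), the direction its labels give. Mdm4 and Chek2 are in the merged table of 3 KD and 3 Ctrl libraries. The other 7 members come from the files with the whole annotation, which are 2 KD and 3 Ctrl libraries, as KD replicate 3 ends before them. CPM of the table are scaled to the part of the genome in it and are higher than CPM of the whole libraries. Trp53, Cdkn1a, Brca1, Chek2, Mdm2 and Atm were higher in KD, Mdm4 and Atr were lower, and Chek1 was not called. Of all genes tested, 70.9% were called in the table (33.5% higher, 37.4% lower) and 66.8% in the whole annotation (30.5% higher, 36.4% lower), beside 8 of the 9 members. The study asked for an unadjusted P below 0.05 in DESeq2 with a log2 change above 1 in size. With these thresholds set on edgeR's values, Trp53 alone was called, where 38.9% of genes in the whole annotation and 37.2% in the table were.

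**Figure D4:**
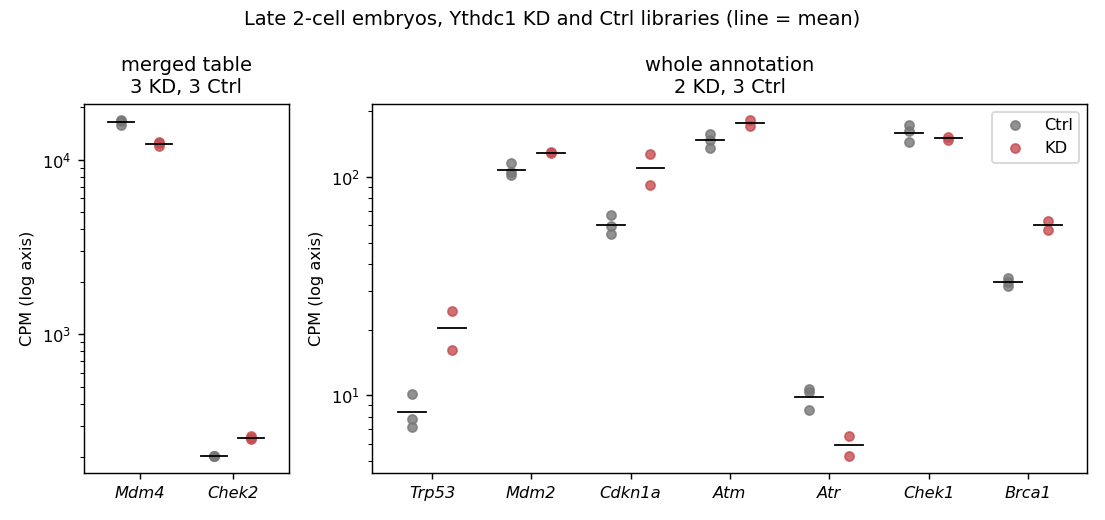
CPM on log axes in Ctrl and KD L2C libraries, for Mdm4 and Chek2 from the merged table and for the other 7 genes from the whole annotation, with points for libraries and lines for means. Trp53, Cdkn1a and Brca1 lie clear above Ctrl in both KD libraries, and Mdm4 and Atr lie below.

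Trp53 changed most, from 7.18, 7.81 and 10.2 CPM in Ctrl to 16.2 and 24.4 CPM in KD. The log2 change was 1.29 ± 0.20 (edgeR adjusted p = 3.47e-05), 2.44-fold and at percentile 89.3 of all genes. It rests on 92 to 228 counts a library. The pseudogene Trp53-ps, which could share reads, held 1 to 5 counts.

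Cdkn1a went from 59.9, 54.6 and 66.7 CPM in Ctrl to 92.1 and 127 CPM in KD (log2 change 0.86 ± 0.12, edgeR adjusted p = 2.01e-05). Brca1 went from 34.6, 33.1 and 31.6 CPM to 63.1 and 56.9 CPM (0.86 ± 0.10, adjusted p = 3.17e-06). Both KD libraries lay above all Ctrl libraries in each gene. The 2 genes were at percentiles 82.6 and 82.5, and these calls, like that of Trp53, held without each library in turn.

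Mdm4, the inhibitor of p53, was at 16776, 16682 and 15790.3 CPM of the table in Ctrl and 12626, 12038 and 12429.8 CPM in KD. It was lower in all 3 KD libraries, by 0.41 ± 0.05 on the log2 scale (edgeR adjusted p = 8.19e-07). The pseudogene Mdm4-ps held 5 to 19 counts. Mdm2 was at 106, 102 and 116 CPM in Ctrl and 130.1 and 128 CPM in KD (0.26 ± 0.09, adjusted p = 0.0175), and its call was lost without KD 1 (0.0857), KD 2 (0.0542), Ctrl 1 (0.0531) or Ctrl 2 (0.0949) and under library size scaling (0.0849, where Atm was lost too, 0.0544). In the ratio within a library, Mdm4 over Mdm2 was 61.0, 62.7 and 52.1 in Ctrl and 37.5 and 36.1 in KD. Mdm4 over Trp53 was 901, 821 and 593 in Ctrl and 302 and 189.7 in KD, 0.315 times as high (exact permutation test, two-sided, p = 0.2, the smallest that 2 against 3 libraries allow).

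Among the kinases, Chek2 and Atm were higher in KD and Atr was lower. Chek2 was at 201, 201 and 202 CPM of the table in Ctrl and 262, 254 and 253 CPM in KD (0.35 ± 0.07, edgeR adjusted p = 0.000238). Chek1 overlapped, at 173, 162 and 145 CPM in Ctrl and 153 and 148 CPM in KD (-0.09 ± 0.09, adjusted p = 0.409). Atm was at 157, 148 and 136 CPM in Ctrl and 181 and 171 CPM in KD (0.26 ± 0.09, adjusted p = 0.0144). Atr was at 10.3, 10.7 and 8.53 CPM in Ctrl and 5.27 and 6.53 CPM in KD, on 57 to 151 counts (-0.75 ± 0.21, adjusted p = 0.00477). Without KD 1, which leaves KD 2 alone and takes its spread from the Ctrl libraries, the calls of Atm (0.114) and Atr (0.0577) were lost, and with Mdm2 that left 5 members called.

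The KD embryos also differed from Ctrl in stage markers. The 10 2-cell markers summed to 469 to 519 CPM in KD and 1615 to 1770 CPM in Ctrl, and 10 of 10 were lower without overlap. The 10 oocyte markers summed to 1227 to 1335 CPM in KD and 2467 to 2590 CPM in Ctrl, with 6 of 10 lower and 2 higher. Cumulus cell markers summed to 37.8 to 41.1 CPM in KD and 24.2 to 32.0 CPM in Ctrl, and Ptx3, Cd44 and Fshr were at 0 in both. The part of stage or of other cells in the members' differences was not tested.

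The wider pathway was taken as 5 lists of 100 genes in all, of which 97 passed the filter in the inputs. Among 21 tested p53 targets, 13 rose and 6 fell from L1C to L2C, with a median log2 change of 1.95 against 0.17 over all genes, of which 44.1% rose and 38.8% fell. The stress-induced sestrin Sesn2 went from 19.6 to 1175 CPM over its span (log2 change 5.91), though its exon counts in Ctrl L2C embryos gave 36.0 CPM, and Ei24 from 7.15 to 341 CPM (5.57). The repair genes Xpc, a sensor of bulky lesions (-1.92), and Polk, a translesion polymerase (-3.06), fell. Of 20 p53 regulators and family genes, 13 rose and 6 fell (median 1.09), among them the acetyltransferase Ep300 (3.01) and Zfp346 (4.78) upward and the p53 relative Trp63 (-3.16) and the kinase Hipk2 (-1.42) downward.

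Genes of damage sensing and checkpoint signalling split evenly, 13 rising and 11 falling of 26 (median 0.21). Within the single-stranded DNA binding complex RPA, Rpa2 rose by 3.43 and Rpa1 fell by 3.00 on the log2 scale. Among the CDC25 phosphatases, which release the cell cycle that CHK1 and CHK2 hold, Cdc25c rose by 5.03 and Cdc25b fell by 2.97. BRCA1 partners and homologous recombination genes mostly fell, 16 of 24 against 5 that rose (median -1.21), with Abraxas1 (-3.24) down and the nuclease Dna2 (1.45) up. All 6 end joining genes fell (median -2.09), Xrcc4 from 560.4 to 132 CPM and Nhej1 from 293 to 56.8 CPM, after both had risen from MII to L1C (2.60 and 2.00).

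From MII to L1C fewer genes of the lists were called. The p53 targets had 8 higher and 5 lower of 21, the regulators 6 and 7 of 20, the signalling genes 9 and 13 of 26, the recombination genes 5 and 10 of 24, and end joining 3 and 1 of 6. Of all genes, 31.9% were called higher and 24.3% lower. The lists' medians lay between -0.37 for signalling and 0.89 for end joining, against 0.16 for all genes.

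In the IP at L2C the p53 targets had 0 genes higher and 6 lower than input of 21, and the regulators 4 and 10 of 20, where 22.0% of all genes were called in each direction. Sesn2 (log2 IP/input -2.12) and the polo-like kinase Plk2 (-1.76) were low, as were the p53 partner Daxx (-1.81) and the acetyltransferase Kat5 (-1.54), while the ubiquitin ligase Cop1 (1.85) and the deacetylase Sirt1 (1.41) were high. Signalling genes had 11 higher and 10 lower of 26, with the fork protection factors Tipin (1.03) and Clspn (0.76) high and Rpa1 (-1.40) and Trp53bp1 (-1.13) low. Recombination genes had 4 higher and 10 lower of 24, among them Brca2 (0.64) high and its partner Palb2 (-1.13) low, and end joining genes 1 higher and 2 lower of 6. The lists' medians were between -0.47 and -0.05, against 0.09 for all genes.

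In KD, with 2 KD and 3 Ctrl libraries of the whole annotation, the p53 targets had 7 genes higher and 9 lower of 20 tested (median -0.15, all genes -0.09), where 30.5% of all genes were higher and 36.4% lower. In the merged table of 3 KD and 3 Ctrl libraries, 5 p53 targets were higher and 4 lower of 11 tested (median 0.34, all genes -0.06). There 33.5% of all genes were higher and 37.4% lower. Medians there were -0.08 for regulators, 0.31 for signalling, 0.40 for recombination and -0.85 for end joining. In the whole annotation the apoptosome gene Apaf1 was higher (log2 change 1.14), while the proapoptotic Pmaip1 (-1.88) and the antiproliferative Btg2 (-1.85) were lower. Regulators had 6 higher and 5 lower of 20 (median 0.01), with the ribosomal protein gene Rpl5 higher (1.01) and the ubiquitin ligase Rchy1 lower (-0.82). Signalling genes had 10 higher and 5 lower of 26 (median 0.20), the clamp loader Rad17 (1.75) and the ATR partner Atrip (1.74) being higher and the nuclease Mre11a (-2.11) lower. Recombination genes had 13 higher and 5 lower of 24 (median 0.40), with Uimc1 (0.87) higher and Babam1 (-1.66) lower, both of the BRCA1-A complex. End joining genes had 2 higher and 4 lower of 6 (median -0.89), with Xrcc4 (-1.46) and Xrcc6 (-0.89) lower and the DNA ligase gene Lig4 (0.75) higher. The end processing nuclease gene Dclre1c was also higher, at 0.278 ± 0.0516 CPM in Ctrl (SD, n = 3) and 6.59 ± 2.78 CPM in KD (SD, n = 2), a rise of 4.53 ± 0.44 on the log2 scale (SE; adjusted p = 3.88e-07 in edgeR), with 4.48 in the merged table of 3 KD and 3 Ctrl libraries.

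**Figure D5:**
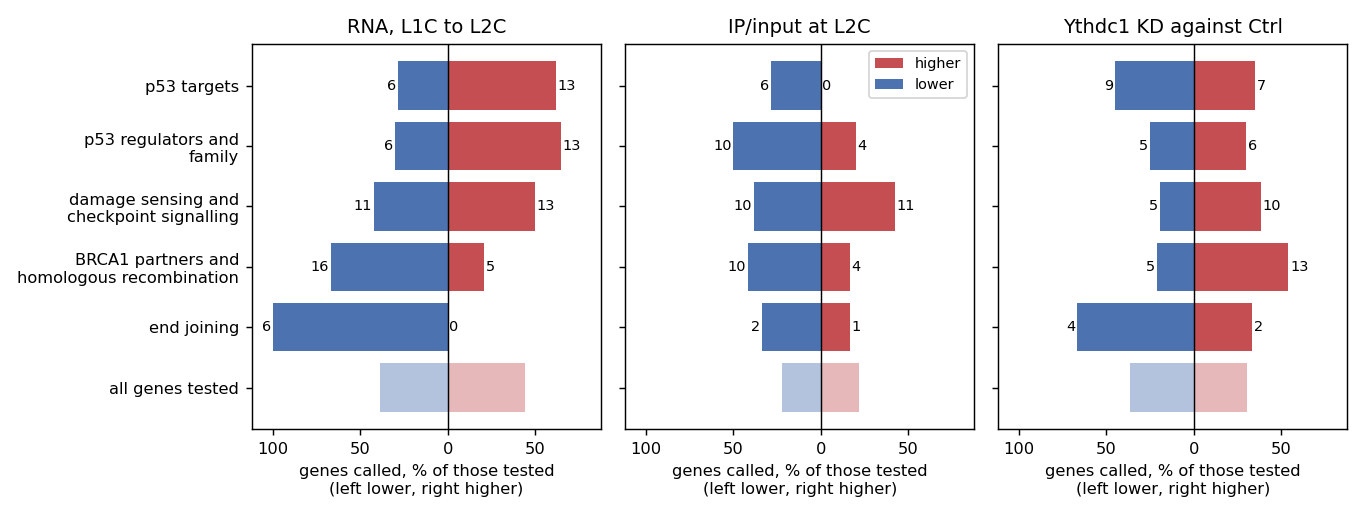
Share of tested genes called lower (left, blue) and higher (right, red) in each of 5 pathway lists, with the number of genes at each bar's end and all genes tested as pale bars, for RNA from L1C to L2C, IP/input at L2C and KD against Ctrl. In the first panel 13 of 21 p53 targets rise and 6 of 6 end joining genes fall.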

How the data were processed

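SLIM-seq libraries (3 input and 3 IP at each of MII, L1C and L2C) and Ythdc1 knockdown libraries (3 KD, 3 Ctrl) were grouped by their labels. For SLIM-seq, the authors deposited estimated counts from kallisto on whole gene spans, introns included, which were rounded here. The labels and the study's methods name different library kits, and whether these counts used strand was not settled. For the knockdown, the authors deposited read counts over exons from featureCounts after Trimmomatic and HISAT2 on GRCm38 (mm10). The merged table holds 25739 of 55471 genes and 37.5% to 39.0% of the counts. The count file of KD replicate 3 ends early, so that 5 libraries hold the whole annotation.

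Counts were tested with edgeR 4.0.16 (quasi-likelihood, TMM, filterByExpr, R 4.3.3), with Benjamini-Hochberg adjusted p below 0.05 over all genes tested. Inputs were fitted together (9 libraries), as were inputs and IPs (18 libraries, 1 coefficient per stage and kind). Alternatives were DESeq2 1.42.0, library size scaling, no filter, the compared stages alone, a replicate block, each library left out, and rules after those of the study. The edgeR script was tested on simulated data. Depth was 11107175 counts or more per SLIM-seq library and 3276715 or more in the merged table.

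The members, pathway lists (p53 targets, p53 regulators and family, damage sensing and checkpoint signalling, BRCA1 partners and homologous recombination, end joining) and marker lists (oocyte, 2-cell, cumulus cell) were chosen with earlier results of these data known. Of each pathway list and direction, at most 2 genes were eligible for naming, those with the smallest p among called genes without overlap of the groups and with a mean of at least 10 counts, and the text leaves some out. For likeness, the 2 protein-coding genes with the highest Pearson r were taken per member. Gene names and positions come from GENCODE M21 and promoters from RefSeq (GRCm38.p6).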

Additional observations from a re-analysis of the deposited data

Results flagged for a closer look

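The recovery of 4 members by the m6A antibody differed between stages in the test of the difference itself (edgeR, interaction of stage and library kind). From MII to L1C 1 of the 9 members was called, where 7.33% of all genes were. From L1C to L2C it was 2 members against 9.47% of genes, and from MII to L2C 3 against 20.3%. The log2 IP/input of Mdm2 rose by 0.85 from MII to L1C and by 1.18 from MII to L2C. That of Trp53 changed by -0.65 from L1C to L2C and by -0.53 from MII to L2C. That of Brca1 rose by 0.58 from L1C to L2C, and that of Atm by 0.98 from MII to L2C. The Mdm2 values held their calls without each library in turn, and the others each lost theirs without at least 1 library. The Trp53 change from MII to L2C was lost without each of 11 libraries, and also under library size scaling (adjusted p = 0.0555), with no filter (0.0961), under the replicate block (0.0644) and under a block within stage (0.0989). Under the block within stage the Trp53 change from L1C to L2C was lost as well (0.0787). The Brca1 change from L1C to L2C was lost with no filter (0.153), with the compared stages alone (0.170) and under the block within stage (0.0639). The Atm change from MII to L2C was lost with the compared stages alone (0.0630). In the same contrasts the summed cumulus cell markers and 2-cell markers differed between stages, and their part in these values was not tested.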

How the results depend on the processing

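Of 207 counts of members called under alternatives, 186 were within 1.5 times the value reported, and of the values of single members 1634 kept direction and side of the threshold, 68 lost the call, 21 gained it and 36 changed sign. Asking also for a log2 change above 1 left 2 members from MII to L1C and 5 from L1C to L2C. A looser edgeR version of the study's tagging rule, on pooled replicates and for higher RNAs alone, gave 1 member at MII and 2 at L2C, and the replicate-wise DESeq2 form, closer to the study's own, 0 at MII, 0 at L1C and 1 at L2C. For the change of IP/input from L1C to L2C, 1 member was called with no filter and 1 with the compared stages alone, and leaving out 1 library gave 0 to 2, the lowest without L1C IP 3. From MII to L2C this was 1 to 5, with 1 without MII input 1, L2C input 2 or MII IP 2 and 5 without L1C input 1. In KD it was 5 to 8, with 5 without KD 1, and edgeR's unadjusted P with a log2 change above 1, after the study, gave 1.

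Inputs came from the batches of the IP samples, but no source used here says that a replicate number marks a batch, and same-numbered libraries did not deviate together throughout. Their correlations were -0.16 to 0.22 for IP and input at MII, -0.38 to 0.18 at L1C and -0.19 to -0.15 at L2C, -0.17 to 0.39 over the pairs of input stages, and -0.10 to 0.087 for KD and Ctrl. The numbers were therefore not taken as pairs. A replicate block gave 6, 8 and 9 members for RNA, 4, 4 and 6 for IP/input, 1, 2 and 2 for its changes, where Trp53 from MII to L2C was lost (adjusted p = 0.0644), and 8 for KD. A block within stage, chosen after seeing the data, gave 4, 3 and 5 members for IP/input and left 0 for its change from L1C to L2C. Chek2 at L1C (adjusted p = 0.0691), Trp53 at L2C (0.0643) and the changes of Trp53 (0.0787) and Brca1 (0.0639) from L1C and of Trp53 from MII (0.0989) to L2C were then not called.

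Signs changed only in values that were not called. For Chek1 RNA from MII to L1C, DESeq2 gave -0.015, no filter -0.010 and single omissions -0.12 to 0.14. For Mdm2 RNA from L1C to L2C, DESeq2 gave 0.052 and library size 0.0032. For Atr IP/input at MII, DESeq2 gave 0.053, library size 0.22, the stage alone 0.036 and omissions -0.16 to 0.090. Omissions gave -0.066 to 0.16 for Chek1 at MII, -0.12 to 0.48 for Cdkn1a and -0.080 to 0.24 for Atr at L1C, and for Chek2 at L2C -0.0047 to 0.073, with -0.0064 under no filter. For changes of IP/input, Cdkn1a from MII to L1C gave -0.0068 with the stages alone and -0.34 to 0.27 over omissions, and Atr -0.066 to 0.25. Mdm4 from L1C to L2C gave -0.011 in DESeq2, -0.016 with library size, -0.011 with no filter, -0.15 with the stages alone and -0.15 to 0.16 over omissions, and Chek1 -0.26 to 0.030. The causes were not tested. Chek2 at MII rests on 3 to 28 counts a library.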
